A study of Mus musculus with 8 samples.

Results

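GABA is the main inhibitory transmitter of the brain, and the striatum is built largely of neurons that release it. Neurons make it from glutamate with glutamic acid decarboxylase, whose forms are encoded by Gad1 (GAD67) and Gad2 (GAD65), and load it into vesicles with the transporter encoded by Slc32a1 (VGAT). After release it is taken up by transporters such as GAT3, encoded by Slc6a11 and known mainly from astrocytes, and broken down in mitochondria by GABA transaminase, encoded by Abat. These 5 genes were chosen by name for their roles in GABA synthesis, vesicle loading, uptake and breakdown, and every array probe carrying one of their symbols was looked up. The table held 8 such probes, and 7 of them, standing for 4 of the 5 genes, were detected (detection p under 0.05) on 4 or more of the 8 arrays. They belong to the 13413 of 25697 probes, or 10008 of 18138 gene symbols, that met this criterion.

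The tissue was striatum of C57BL/6 mice at postnatal day 30. One group of 4 arrays carries the label PGC-1α null, and the other group of 4 carries the label PGC-1α wild type. PGC-1α is the transcriptional coactivator encoded by Ppargc1a, known for driving genes of mitochondrial metabolism. The series title names a cell-specific deletion in medium spiny neurons, the GABA-releasing projection neurons of the striatum, while the sample labels speak of null mice and name no Cre driver or floxed allele. The labels give medium spiny neurons as cell type but whole striatum as source, so each value sums all cell types of the tissue, and fewer cells of a type cannot be told apart from less RNA per cell. Nothing in the labels states that each replicate was its own animal, and the p-values then describe only how far these arrays scatter, which can be a technical spread.

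Values are log2 intensities after background correction and quantile normalization. Differences are null minus wild-type with the standard error (SE) of the limma fit, and p-values were adjusted by the Benjamini-Hochberg method over all 13413 probes. Mean raw intensity was 297 to 499 on the null arrays and 295 to 467 on the wild-type arrays. All 8 arrays were hybridised on 1 chip with the groups in separate positions, so chip position and genotype cannot be told apart. The Ppargc1a probe averaged 7.73 ± 0.43 (log2) in null and 7.61 ± 0.38 in wild-type striatum (SD, n = 4 each; difference 0.12, SE 0.23, limma adjusted p = 0.937). Where that probe lies relative to the deletion is not stated by the labels, so it does not check the labels, and each direction below rests on them.

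RefSeq promoters (build GRCm38.p6) were found for 4 of the 5 genes, from 250 bases before to 50 bases after the gene start. Those of Slc32a1, Gad1 and Slc6a11 are shown because these genes had the largest differences and because the first and the last differ in the motif looked for on account of PGC-1α. Capitals mark matches, on either strand, to the core motif of the estrogen-related receptors, which are partners of PGC-1α (AAGGTCA), to the GC box (GGGCGG) or to the TATA box (TATAAA).

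Slc32a1 promoter, chr2:158610508-158610807, plus strand: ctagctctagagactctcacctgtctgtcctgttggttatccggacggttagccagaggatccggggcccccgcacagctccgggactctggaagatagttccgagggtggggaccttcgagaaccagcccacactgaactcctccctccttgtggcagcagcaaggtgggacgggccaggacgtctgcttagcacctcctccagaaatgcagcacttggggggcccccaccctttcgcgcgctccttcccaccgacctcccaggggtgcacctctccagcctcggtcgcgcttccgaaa

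Gad1 promoter, chr2:70561879-70562178, plus strand: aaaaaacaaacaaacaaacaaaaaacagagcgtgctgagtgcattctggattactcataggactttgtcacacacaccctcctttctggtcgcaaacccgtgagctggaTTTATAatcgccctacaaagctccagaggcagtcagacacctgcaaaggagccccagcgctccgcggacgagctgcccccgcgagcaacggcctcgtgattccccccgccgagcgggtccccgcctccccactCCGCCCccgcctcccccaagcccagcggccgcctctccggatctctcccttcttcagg

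Slc6a11 promoter, chr6:114130991-114131290, plus strand: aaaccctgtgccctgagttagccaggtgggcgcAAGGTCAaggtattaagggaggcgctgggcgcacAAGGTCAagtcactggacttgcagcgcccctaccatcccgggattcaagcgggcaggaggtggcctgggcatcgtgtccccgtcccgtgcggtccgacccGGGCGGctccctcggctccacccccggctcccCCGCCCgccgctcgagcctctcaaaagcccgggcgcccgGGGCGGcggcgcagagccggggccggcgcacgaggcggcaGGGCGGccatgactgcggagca

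The Slc6a11 window held 2 copies of AAGGTCA, starting 217 and 183 bases before the gene start, while the windows of Gad1, Gad2 and Slc32a1 held none. Of all 32851 promoter windows in the table, 4.72% held this motif at least once and 0.18% held 2 or more copies. GC boxes were counted 4 times in the Slc6a11 window and once in the Gad1 window. Of all windows, 35.66% held at least 1 and 19.49% held 2 or more. The bases G and C made up 72.3% of the Slc6a11 window, a higher share than in 93.5% of all windows. The Gad1 window also held a TATA box on the minus strand, 141 bases before the start, as 13.62% of all windows held one on either strand. The core of the NRF1 site (TGCGCA, in 7.76% of all windows) and the cyclic AMP response element (TGACGTCA, in 1.79%) were found in none of the 4 windows. A match is a description of letters, not a site of binding.

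No probe of the GABA genes passed the threshold. With limma, 0 of the 7 kept probes had an adjusted p under 0.05, as did 0 of all 13413 probes (0%), of which 496 were lower and 430 higher in null striatum at an unadjusted p under 0.05. Of the 7, 6 had lower means in null striatum, namely both probes of Gad1, those of Slc32a1 and Slc6a11 and the 2 brighter ones of Abat, and the dimmest Abat probe had a higher one. At an unadjusted p under 0.05, 3 of the 7 were lower in null striatum and 0 were higher, where 3.70% of all probes were lower and 3.21% higher at that level. The groups did not overlap for 1 of the 7, the Slc32a1 probe, against 2.59% of all probes with all null arrays below all wild-type arrays. The median difference was -0.24 over the 7 probes and -0.0043 over all kept probes.

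**Figure D1:**
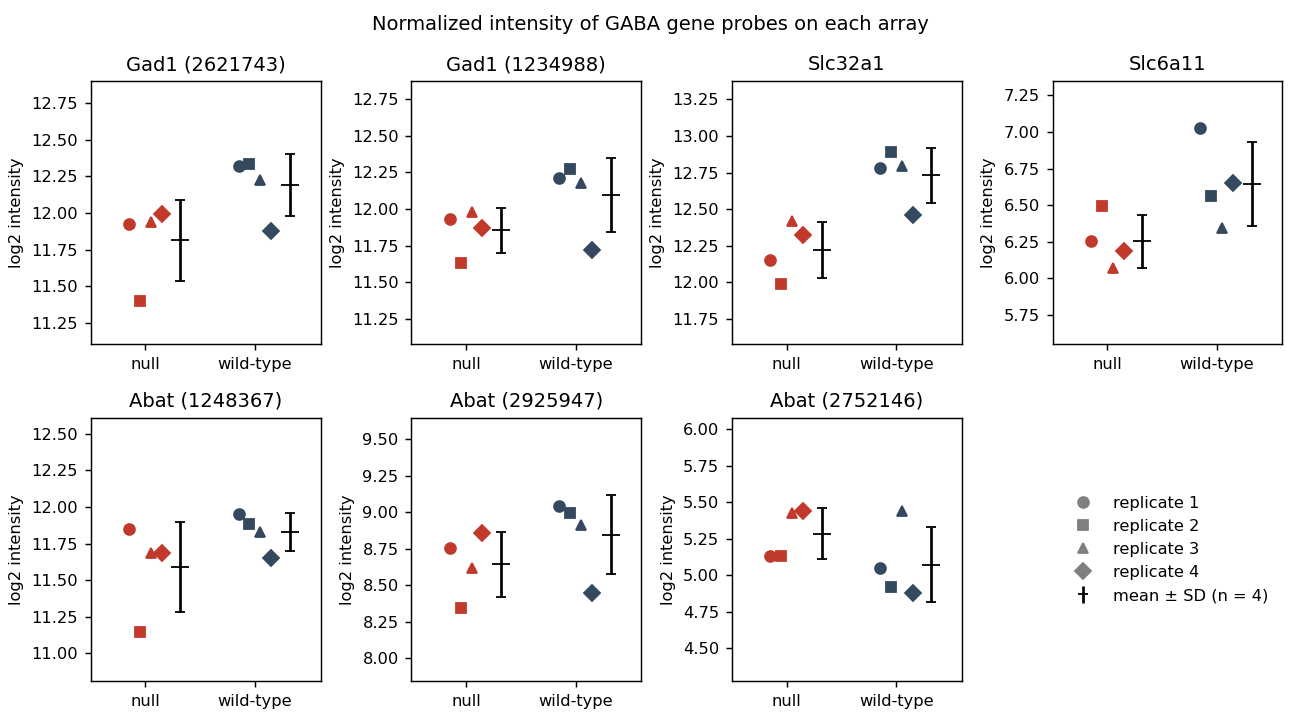
Normalized log2 intensity (vertical axis) of the 7 kept probes of Gad1, Slc32a1, Slc6a11 and Abat on each of the 4 null (red, left) and 4 wild-type arrays (dark, right); symbols give the replicate number, bars the mean ± SD, and probes of the same gene carry the digits of their ILMN identifier. Every panel spans the same height of log2 units. The null values of Slc32a1 lie below all its wild-type values, and the other panels overlap.

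Gad1 encodes the decarboxylase that supplies most of the GABA of the cell body and axon. It was measured by 2 probes, brighter than 97.6% and 97.7% of the kept probes of the table. With ILMN_2621743 the null arrays read 11.93, 11.40, 11.94 and 11.99, and the wild-type arrays 12.32, 12.34, 12.23 and 11.88. Wild-type replicates 1, 2 and 3 lay above every null array and wild-type replicate 4 lay among them, while null replicate 2 was the lowest of all. The means were 11.81 ± 0.28 in null and 12.19 ± 0.21 in wild-type striatum (SD, n = 4 each), a difference of -0.38 (SE 0.16, 95% interval -0.73 to -0.02, limma adjusted p = 0.707). That difference corresponds to 77.0% of the wild-type level, and it was -0.24 without null replicate 2. With ILMN_1234988 the null arrays read 11.93, 11.63, 11.98 and 11.87 and the wild-type arrays 12.21, 12.27, 12.18 and 11.72. Again wild-type replicates 1, 2 and 3 lay above every null array, and wild-type replicate 4 stood between null replicate 2 and the other null arrays. The difference was -0.24 (SE 0.15, limma adjusted p = 0.762), and -0.37 without wild-type replicate 4. The probes followed each other across the 8 arrays (Pearson's r = 0.93, Spearman's rho = 0.93, given as a description), and their differences were not set apart by an exact permutation test over samples (difference of -0.13, exact permutation p = 0.114, 4 arrays each).

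Gad2 encodes the decarboxylase form that is anchored at synaptic vesicles. Its single probe was not detected on any of the 8 arrays, with detection p-values from 0.471 to 0.742 on the null and from 0.0927 to 0.98 on the wild-type arrays. The raw intensities were 90.8 to 112 on the null and 90.4 to 106 on the wild-type arrays. Both groups were therefore not above background, no fold was computed, and whether Gad2 differs between the groups is not measured by this probe.

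Slc32a1 encodes VGAT, the transporter that fills synaptic vesicles with GABA and is used by GABA-releasing neurons in general. Its probe was the brightest of the 7, above 98.7% of the kept probes of the table. The null arrays read 12.15, 11.99, 12.42 and 12.32, and the wild-type arrays 12.78, 12.89, 12.80 and 12.46. Every null array lay below every wild-type array, with null replicate 3 and wild-type replicate 4 the closest to each other. The raw intensities, before normalization, were 5063, 5547, 4979 and 3863 on the null and 8813, 6462, 8571 and 4088 on the wild-type arrays, and these overlapped. The normalized means were 12.22 ± 0.19 in null and 12.73 ± 0.19 in wild-type striatum (SD, n = 4 each). The difference of -0.51 (SE 0.14, 95% interval -0.82 to -0.21) corresponds to 70.1% of the wild-type level, and its limma adjusted p was 0.665. An exact permutation test gave p = 0.0286, the smallest that 4 against 4 arrays allow, and 0.485% of all kept probes had a smaller unadjusted limma p. Leaving out 1 array at a time gave -0.60 with wild-type replicate 4 omitted and -0.44 with null replicate 2 omitted, and the other 6 values lay between these.

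Slc6a11 encodes GAT3, which clears GABA from the extracellular space. Its probe was dim, above 38.8% of the kept probes, but detected on all 8 arrays. The null arrays read 6.26, 6.50, 6.07 and 6.19, and the wild-type arrays 7.03, 6.56, 6.34 and 6.65. Null replicates 1, 3 and 4 lay below every wild-type array, null replicate 2 lay between wild-type replicates 3 and 2, and wild-type replicate 1 was the highest. The means were 6.25 ± 0.18 in null and 6.65 ± 0.29 in wild-type striatum (SD, n = 4 each). The difference was -0.39 (SE 0.16, 95% interval -0.74 to -0.05, limma adjusted p = 0.707; exact permutation p = 0.0571). It was -0.26 without wild-type replicate 1 and -0.20 (SE 0.08) without background correction.

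Abat encodes GABA transaminase, the first enzyme of GABA breakdown. Its symbol is carried by 3 probes, of which the dimmest differed in sign from the others. The brightest, ILMN_1248367, read 11.85, 11.15, 11.69 and 11.69 on the null and 11.95, 11.89, 11.83 and 11.65 on the wild-type arrays. Null replicate 2 was the lowest array, and the other null arrays lay within the wild-type range of 0.31. Its difference was -0.24 (SE 0.16, limma adjusted p = 0.772), and -0.09 without null replicate 2. ILMN_2925947 averaged 8.65 ± 0.22 in null and 8.85 ± 0.27 in wild-type striatum (SD, n = 4 each), a difference of -0.20 (SE 0.16, limma adjusted p = 0.813). It was -0.10 without null replicate 2 and -0.33 without wild-type replicate 4. ILMN_2752146 was near background, with wild-type replicate 2 not detected, and read 5.13, 5.13, 5.43 and 5.44 on the null and 5.05, 4.92, 5.44 and 4.88 on the wild-type arrays. Its difference was 0.21 (SE 0.15, limma adjusted p = 0.791), 0.33 without wild-type replicate 3 and 0.06 without background correction. The brighter probes followed each other over the 8 arrays (r = 0.84, rho = 0.91), and the dimmest followed neither (r = 0.12 with ILMN_2925947 and -0.05 with ILMN_1248367). With the 3 probes averaged the difference was -0.08 (SE 0.14).

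**Figure D2:**
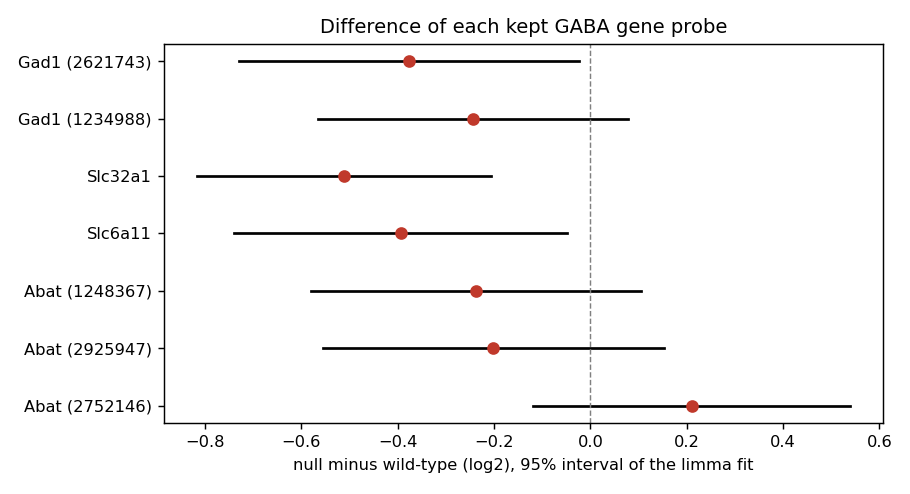
Null minus wild-type difference (log2, horizontal axis) of each kept probe of the GABA genes, with the 95% interval of the limma fit, from 4 arrays per group. Of the 7 points, 6 lie below 0. The intervals of Slc32a1, Slc6a11 and 1 Gad1 probe do not reach 0 before adjustment, and no adjusted p was under 0.05.

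The differences of the genes were set against each other within each array, with the brightest probe of each. Slc32a1 against Abat gave the widest gap, -0.27 (exact permutation p = 0.0857, adjusted p = 0.343 over 6 pairs, 4 arrays per group). Gad1 against Abat came to -0.14 (p = 0.114, exact permutation) and Gad1 against Slc32a1 to 0.13 (p = 0.257, exact permutation). The pairs with Slc6a11 had exact permutation p-values of 0.6 to 0.943. None of the 6 passed, and with 4 arrays per group these tests leave the sizes of the 4 differences undistinguished rather than equal.

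Correlations between the genes were computed across the 8 arrays, where a group difference of the same sign in both genes adds to r. Gad1 and Slc32a1 had a Pearson's r of 0.91 (exact permutation p = 0.00198, adjusted p = 0.00893 over 6 pairs) and a Spearman's rho of 0.81 (exact permutation p = 0.0218, adjusted p = 0.0653). Gad1 and Abat had r = 0.93 (exact permutation p = 0.00298, adjusted p = 0.00893) and rho = 0.83 (exact permutation p = 0.0163, adjusted p = 0.0653). Slc32a1 and Abat had r = 0.73 (exact permutation p = 0.0173, adjusted p = 0.0345) and rho = 0.59 (exact permutation p = 0.134, adjusted p = 0.268). Slc6a11 had r of 0.29 with Gad1, 0.42 with Slc32a1 and 0.18 with Abat, with rho of 0.19, 0.43 and 0.28 (exact permutation p of 0.482, 0.308 and 0.645 for r, and of 0.665, 0.299 and 0.507 for rho). Without null replicate 2 and wild-type replicate 2, the arrays farthest from the Gad1 and Slc32a1 medians, r was 0.85 for Gad1 and Slc32a1 (exact permutation p = 0.05), 0.78 for Gad1 and Abat (p = 0.0639, exact permutation) and 0.44 for Slc32a1 and Abat (p = 0.372, exact permutation). The last relation therefore rests on those arrays, and the first and second were no longer under the threshold with 6 arrays. Slc6a11 had r = 0.57 with Gad1 and 0.59 with Slc32a1 over the same 6 arrays, and -0.24 with Abat without wild-type replicate 1 and null replicate 3 (exact permutation p of 0.206, 0.208 and 0.733). After each value was taken as a deviation from its group mean, r was 0.89 for Gad1 and Slc32a1, 0.92 for Gad1 and Abat and 0.67 for Slc32a1 and Abat. For Slc6a11 these values were below 0, at -0.31 with Gad1, -0.42 with Slc32a1 and -0.26 with Abat, against positive r over the undivided arrays. All 6 are a description of the 8 arrays, with no test.

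**Figure D3:**
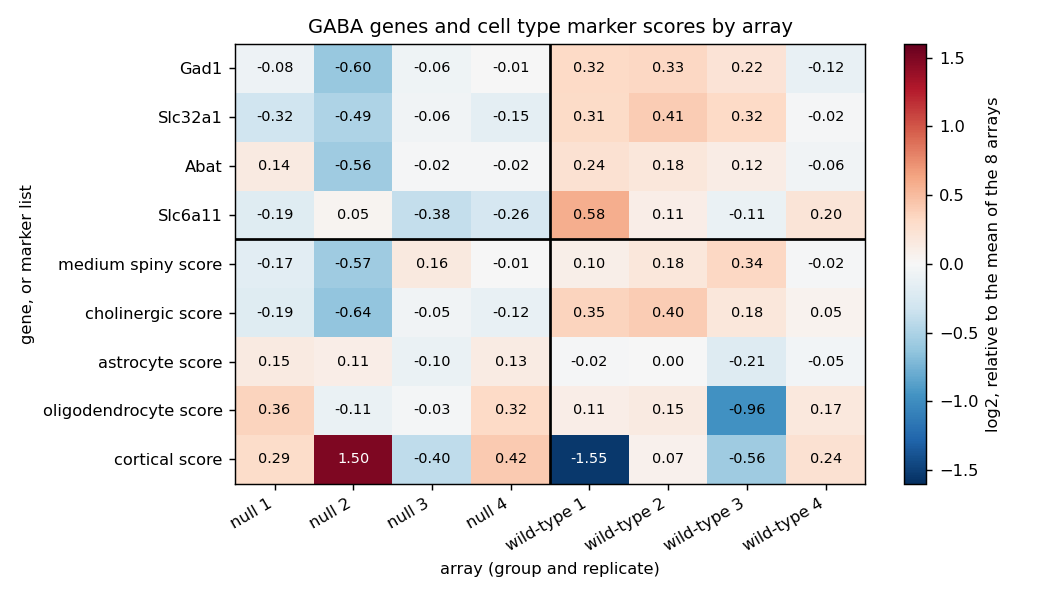
Level on each array (columns, null arrays left and wild-type arrays right) relative to the mean of the 8 arrays, in log2 units, for the brightest probe of Gad1, Slc32a1, Abat and Slc6a11 (upper rows) and for the mean of 5 lists of cell type markers (lower rows). In null replicate 2 Gad1, Slc32a1 and Abat stood at -0.60, -0.49 and -0.56, the medium spiny score at -0.57 and the cortical score at 1.495.

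Markers of cell types differed between the arrays beside these genes. The medium spiny neuron list had 14 of 14 measured genes lower in null striatum, with a median of -0.25. None passed the limma threshold, and 5 of the 14 were lower at an unadjusted p under 0.05, beside 3.70% of all probes. Its score, the mean of centred log2 values, ran from -0.57 to 0.16 in null and from -0.02 to 0.34 in wild-type striatum. Among its defining markers, the dopamine receptor genes Drd1a and Drd2 differed by -0.18 (SE 0.14) and -0.23 (SE 0.18) and the adenosine receptor gene Adora2a by -0.24 (SE 0.28), each with overlapping groups. The gene of the phosphatase inhibitor DARPP-32, Ppp1r1b, stood at -0.43 (SE 0.14) without overlap, and Adcy5 was not detected on any array. Of all probes, 2.59% were lower in null striatum without overlap. The genes of the list with the smallest p were Rgs14 at -0.58 (SE 0.14) and Pdyn, the prodynorphin gene, at -0.80 (SE 0.20). Cortical excitatory neuron markers, from tissue that borders the striatum, had 6 of 6 measured genes (of 10 listed) higher in null striatum, with a score of -0.40 to 1.495 in null and -1.55 to 0.24 in wild-type striatum. The highest cortical score was that of null replicate 2 and the lowest that of wild-type replicate 1, and Neurod6 and Neurod1 were not detected. Cholinergic interneuron markers had 8 of 8 members lower, with a median of -0.54 and a score of -0.64 to -0.05 in null and 0.05 to 0.40 in wild-type striatum. None passed the limma threshold, and 5 of the 8 were lower at an unadjusted p under 0.05, beside 3.70% of all probes. Parvalbumin interneuron markers, of another class of GABA-releasing cells, were lower in 5 of 6 cases, of which Tac1 also stood in the medium spiny list. Their score ran from -0.43 to 0.22 in null and from -0.34 to 0.50 in wild-type striatum. The exception was Pvalb, the defining marker, which read 9.52, 6.43, 5.11 and 9.87 on the null and 9.02, 9.26, 5.74 and 5.28 on the wild-type arrays (difference 0.41, SE 1.13). Both groups held high and low arrays for this gene. Astrocyte markers were higher in 12 of 14 cases, with scores of -0.10 to 0.145 in null and -0.21 to -0.0012 in wild-type striatum, while Slc6a11 was lower.

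With the cortical score in the fit, the difference of Gad1 was -0.18 (SE 0.17), of Slc32a1 -0.38 (SE 0.16), of Slc6a11 -0.39 (SE 0.20) and of Abat -0.04 (SE 0.16). With the medium spiny score in the fit it was -0.14 (SE 0.16) for Gad1, -0.32 (SE 0.14) for Slc32a1 and -0.03 (SE 0.17) for Abat, whereas Slc6a11 stood at -0.60 (SE 0.17). With the astrocyte score in the fit Slc6a11 stood at -0.58 (SE 0.18). Without both null replicate 2 and wild-type replicate 1, an alternative chosen after seeing the data, Gad1 differed by -0.20 (SE 0.15), Slc32a1 by -0.43 (SE 0.16) and Abat by -0.05 (SE 0.13). The part of tissue composition in these differences was not tested beyond these values. Among the other lists, oligodendrocyte markers were higher in null striatum in 10 of 10 cases (median 0.29) and endothelial markers lower in 9 of 9 (median -0.15). Pallidal, septal and thalamic markers were lower in 7 of 9 cases (median -0.28), somatostatin and NPY interneuron markers in 3 of 7 (median 0.02) and microglia markers in 4 of 10 (median 0.01), and 0 marker genes passed the threshold. The score of 4 measured Y-linked genes was 1.12 to 1.14 on null replicates 1, 2 and 4 and 0.71 on wild-type replicate 2. It was -1.16 to -0.90 on the remaining arrays. Of these genes, Ddx3y was higher on every null array (10.61 to 11.24) than on any wild-type array (9.64 to 10.59). Eif2s3y read 9.14 to 9.49 on null replicates 1, 2 and 4 and wild-type replicate 2, and 4.32 to 4.41 on the remaining arrays. The Ddx3y probe thus read high also where Eif2s3y was low. Its separation of the groups is therefore no clean measure of Y-linked expression. By the score, high arrays were unevenly spread over the groups, so sex and genotype cannot be fully told apart. With the Y-linked score in the fit Slc32a1 differed by -0.48 (SE 0.18).

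**Figure D4:**
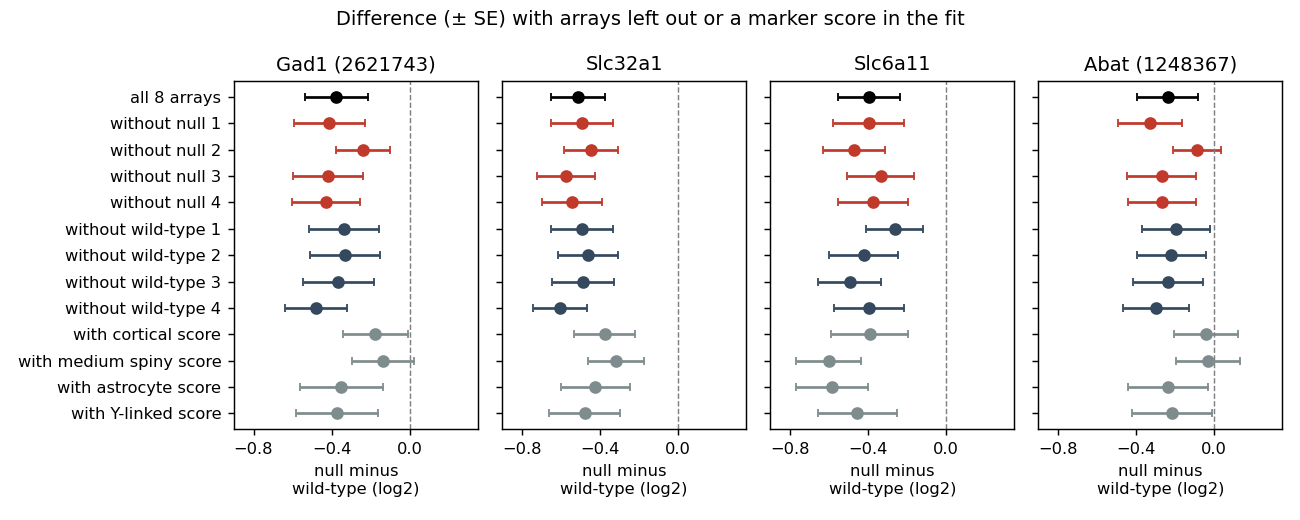
Null minus wild-type difference (log2, horizontal axis) with its SE for the brightest probe of Gad1, Slc32a1, Slc6a11 and Abat, from all 8 arrays (black), with 1 null array (red) or 1 wild-type array (dark) left out, and with a marker score in the fit (grey). Slc32a1 stayed between -0.60 and -0.32 over the settings shown, and Abat came close to 0 without null replicate 2 and with the cortical or medium spiny score.

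Other genes of the pathway were taken from lists by role, with 1 probe per gene, and 0 of them passed the limma threshold in either direction. At an unadjusted p under 0.05, 3 of the 75 measured genes (Slc12a5, Isl1 and Dlx5) were lower and 2 (Gls2 and Aldh1a1) higher in null striatum. These are 4% and 2.67% of the lists, near the 3.70% lower and 3.21% higher among all kept probes. Of 4 measured relatives of GAT3, the transporters of GABA, taurine and creatine, 3 were lower in null striatum and the median was -0.05. Slc6a13 (GAT2) differed by -0.16 (SE 0.13), Slc6a8, the creatine transporter, by 0.11 (SE 0.12) and Slc6a6, the taurine transporter, by -0.09 (SE 0.17). Slc6a12, the betaine and GABA transporter, was not detected on any array. The difference of Slc6a11 thus stood at -0.39 beside values of -0.16 to 0.11 in these relatives.

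Genes that supply glutamate and glutamine, the precursors of GABA, went both ways. Of 11 measured, 5 were lower and 6 higher in null striatum, with a median of 0.09. Gls2, a glutaminase, averaged 7.44 ± 0.08 in null and 6.97 ± 0.10 in wild-type striatum without overlap (SD, n = 4 each; difference 0.47, SE 0.11, limma adjusted p = 0.665). Glul, the glutamine synthetase of astrocytes, differed by 0.27 (SE 0.13), and Got2, the mitochondrial aspartate aminotransferase, by -0.24 (SE 0.11) without overlap. Of all 13413 kept probes, 207 were higher and 348 lower in null striatum without overlap. Of 12 genes of GABA breakdown and of side routes to GABA, 8 were lower, with a median of -0.06. Aldh5a1, the succinic semialdehyde dehydrogenase that acts after GABA transaminase, differed by -0.21 (SE 0.12), Suclg2, a succinyl-CoA ligase subunit, by -0.17 (SE 0.14), and Aldh1a1, an aldehyde dehydrogenase reported to make GABA in midbrain dopamine neurons of mice, by 0.43 (SE 0.17). Of 5 genes handling pyridoxal phosphate, the cofactor of both decarboxylase and transaminase, 3 were lower, with a median of -0.04. Pdxk, the kinase that forms it, differed by -0.23 (SE 0.15) and Akp2, the tissue-nonspecific alkaline phosphatase, by 0.25 (SE 0.16). Both were near background, Pdxk at 4.74 in null and 4.97 in wild-type striatum and Akp2 at 5.34 and 5.09.

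Helpers of decarboxylase anchoring and vesicle loading, among them subunits of the proton pump that powers Slc32a1, had 11 of 17 members lower in null striatum and a median difference of -0.04. Prkca, a protein kinase C, differed by -0.32 (SE 0.15), Hspa8, a chaperone, by -0.26 (SE 0.14) and Ppp3ca, a calcineurin subunit, by -0.28 (SE 0.15). The Prkca probe was near background, at 4.95 in null and 5.27 in wild-type striatum. On the receiving side, 9 of 13 GABA receptor and scaffold genes were lower, with a median of -0.12. Slc12a5, the neuronal chloride extruder KCC2, differed by -0.36 (SE 0.16), Gabrd by -0.27 (SE 0.15) and Gabrg1 by -0.41 (SE 0.23). Transcription factors of GABAergic and striatal fate had 12 of 13 members lower in null striatum (median -0.26), Dlx1 at 0.02 being the exception. Isl1 differed by -0.44 (SE 0.19), Dlx5, near background, by -0.32 (SE 0.14) and Bcl11b (CTIP2), a factor of medium spiny neurons, by -0.38 (SE 0.18). The score of this list was -0.18 to -0.05 in null and 0.05 to 0.16 in wild-type striatum, without overlap. Isl1 and Bcl11b are themselves known from medium spiny neurons, whose marker list was lower too, in 14 of 14 genes with overlapping scores. The cholinergic interneuron list was also lower, in 8 of 8 genes, with scores that did not overlap (-0.64 to -0.05 against 0.05 to 0.40). The part of neuron content of either kind in the score of the transcription factors was not tested.

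The genes most like each member over the 8 arrays, out of 8688 named genes, were found by Pearson's r of log2 intensity, as a description with no test. For Gad1 they were Nrsn2 (r = 0.98, rho = 0.93), Robo1 (0.97 and 0.76) and Alg3 (0.96 and 0.86), which differed by -0.51, -0.50 and -0.29. For Slc32a1 they were Osbpl2 (r = 0.98, rho = 0.90), Gaa (0.97 and 0.93) and Leo1 (0.97 and 0.90), with differences of -0.27, -0.50 and -0.35. For Slc6a11 they were Ubr1 and Tsfm (r = 0.96 and rho = 0.98 each) and Gpc3 (0.94 and 0.95), with differences of -0.12, -0.29 and -0.50. For Abat they were Grsf1 (r = 0.98, rho = 0.87), Acadl (0.96 and 0.90) and Slc35d3 (0.96 and 0.92), with differences of -0.18, -0.36 and -0.29. No gene stood in the first 3 of more than 1 member.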

How the data were processed

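Per the labels' protocols, RNA was extracted from frozen striatum with Trizol and hybridised as biotin-labelled cRNA, and the submitters' processing notes name GenomeStudio; its settings and the genome build are not given in the sources used here. Per the file headers, the deposited table holds linear mean bead intensity per probe without normalization between arrays, and a detection p-value per probe and array. The authors' processed intensity values of the same probes served as an alternative, floored at 16. No column was left unused. Background correction and quantile normalization used neqc (offset 16) in limma 3.58.1 under R 4.3.3. Probes with detection p under 0.05 on at least 4 of 8 arrays were kept, and each was fitted with lmFit and eBayes, two-sided, adjusted by Benjamini-Hochberg over all kept probes. Permutation tests were exact and two-sided. The steps were tested on simulated data. The number of arrays limits precision: over all kept probes the median SE was 0.15, and 95% intervals extended a median of 0.32 each way. The members and gene lists were chosen with earlier results of these data known. The rule for naming genes took all members, the 3 pathway genes per list with the smallest p, up to 2 markers per list and the 3 genes most like each member, and some genes it named are not reported here; Dlx1, Pvalb and the medium spiny and cortical markers beyond the first 2 fall outside it and were chosen after their values were seen. Of 10 planned pairs of members, the 6 without Gad2 were tested, since its probe was not detected. Symbols come from the deposited probe annotation; 5 list genes were matched through a RefSeq synonym (assembly GRCm38.p6), such as Akp2 for Alpl.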

Additional observations from a re-analysis of the deposited data

Results flagged for a closer look

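Of 14 sets of values (7 probes in 2 groups of 4), 2 had a single array standing apart from the other 3, where chance alone gives about 1 in 20. For Gad1 (ILMN_2621743) null replicate 2 was the lowest at 11.40, and its gap to the next null array was 0.889 of the group's range. For the other Gad1 probe (ILMN_1234988) wild-type replicate 4 was the lowest of its group at 11.72, with a gap of 0.83 of the range. Null replicate 2 also had the highest cortical marker score, at 1.495, and the lowest medium spiny score, at -0.57.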

How the results depend on the processing

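With 4 arrays per group and a median SE of 0.15, small differences were not detectable, and the Gad2 probe gave no signal over background. In every setting tried, 0 probes of the GABA genes and 0 of all probes had a limma adjusted p under 0.05. The Slc32a1 difference stayed negative throughout, from -0.60 to -0.44 with 1 array left out and from -0.54 to -0.32 in the other settings. The count of GABA gene probes without overlap was 1 of 7, 0 with median centring, 2 without both arrays of extreme cortical score (chosen after seeing the data), and 1 to 4 with 1 array left out. Omitting wild-type replicate 3 gave 3, omitting wild-type replicate 4 gave 4 and omitting null replicate 2 gave 2. Fewer arrays also make a lack of overlap easier to reach. The 2.59% of all probes with null arrays below wild-type arrays holds only for the main setting with no array left out. The share of all probes was not determined for the other settings, so their counts cannot be judged against it. Without background correction the Gad1 against Slc6a11 gap was -0.17 and the Slc6a11 against Abat gap 0.0345, against 0.02 and -0.16 with it. The Slc6a11 difference was -0.20 without and -0.39 with it, that of Gad1 -0.37 and -0.38, and that of Abat -0.23 and -0.24 (brightest probes). Both gaps thus changed sign mainly through Slc6a11, and why its difference shrank was not tested. With 1 array left out, the Gad1 against Slc6a11 gap ran from -0.0859 to 0.23 and the Slc32a1 against Slc6a11 gap from -0.24 to 0.0262. Over the same settings Pearson's r ran from -0.0643 to 0.55 for Gad1 and Slc6a11 and from -0.20 to 0.55 for Slc6a11 and Abat. It ran from 0.55 to 0.92 for Slc32a1 and Abat, where only the setting without null replicate 1 kept the adjusted p under 0.05. Without null replicate 2, r was 0.90 for Gad1 and Slc32a1 (adjusted p = 0.11, exact permutation) and 0.81 for Gad1 and Abat (adjusted p = 0.156, exact permutation). Median centring put 55.7% of all kept probes lower in null striatum, against 50.9% as reported. With the replicate number as a block, Slc32a1 differed by -0.51 (SE 0.15, limma adjusted p = 0.612) and 0 probes passed. Deviations of same-numbered arrays from their group means had correlations of 0.09, -0.0037, 0.23 and 0.05. Of the 4 null arrays, 1 correlated best with its own number. These values show no pairing of the samples by number, but such a check cannot exclude one.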
